A study of Mus musculus with 19 samples.

Results

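The mouse mitochondrial genome carries 37 genes, of which 13 encode proteins, 2 encode ribosomal RNAs (rRNA) and 22 encode transfer RNAs (tRNA). They were found by Ensembl identifier, and all 37 were listed among the 55414 genes of the per-library count files of an RNA-seq experiment on mouse abdominal aorta. Of the 13 protein genes, 7 were counted in large numbers in every library and the other 6 were at or near 0. Together the 37 genes took 4.49% to 22.9% of the counts in genes, with a median of 11.0% over 19 libraries. None of the 11 members that passed the filter on low counts passed the test of a difference between the groups of mice.

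All libraries came from male Apoe-/- mice on a C57Bl/6J background, young adults whose lack of apolipoprotein E raises plasma cholesterol, and every mouse received angiotensin II (AngII) from a subcutaneous pump, a model of abdominal aortic aneurysm. Control mice (n = 5) had the pump and the anaesthetic without irradiation, D-3 IR mice (n = 7) received 1 Gy of X-rays to the whole body 3 days before the pump, and D+1 IR mice (n = 7) received it 1 day after. The study asked how the time of irradiation relative to AngII affects the aorta, and since controls also received AngII, no group shows an aorta without it. The study names a day for its tissue analyses, but the sources used here do not repeat it for the RNA-seq libraries.

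The mitochondrial genome is a small circle of DNA that is present in many copies per cell and is transcribed by a dedicated RNA polymerase, Polrmt, into long transcripts that hold several genes each. The tRNAs lie between most of the other genes and are cut out, which frees the messenger and ribosomal RNAs, and most of these receive short poly(A) tails. The 13 proteins are all core subunits of the respiratory chain and of ATP synthase: 7 belong to complex I (the mt-Nd genes), mt-Cytb to complex III, mt-Co1, mt-Co2 and mt-Co3 to complex IV, and mt-Atp6 and mt-Atp8 to ATP synthase. All other subunits of these complexes are encoded in the nucleus.

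Each library held 25839001 to 97083681 counts in genes. Libraries were made from RNA selected by poly(A) with a kit that marks strand, but the columns for the first and the second strand were almost equal: the second strand held 46.7% to 53.6% of the 2 strand columns together for each of the 2 rRNA genes and of the 7 abundant protein genes. Reads from either strand can therefore not be told apart, and the unstranded counts were used. Of the markers of the labelled tissue, Acta2, the actin of smooth muscle, lay between 698 and 18521 CPM. CPM is the read count relative to the library's size after TMM scaling. Acta2 was below Ucp1, a marker of brown fat, in D+1 IR 1 (1643 against 3249 CPM) and D+1 IR 3 (698 against 3046 CPM). It was above Ucp1 in each other library. The D+1 IR libraries 1, 2 and 3 carry another number in their file names (41) than all other libraries (61), and the main results are given with and without them.

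The first feature of the members was which of them were counted at all. Of the protein genes, mt-Atp8 and mt-Nd4l had no count in any library, while mt-Co3 had 0 to 3, mt-Co2 0 to 6, mt-Atp6 0 to 13 and mt-Nd3 13 to 169 counts per library. These 6 genes are neighbours and fill chrM:7013-10173 (GRCm38), with only tRNA genes between them. On either side, mt-Co1 (chrM:5328-6872) had 310778 to 4724184 counts and mt-Nd4 (chrM:10167-11544) had 95919 to 986761. The same stretch of the mitochondrial genome has a copy in the nucleus: 7 annotated pseudogenes lie side by side on the minus strand of chr1:24611535-24616197 (GRCm38, GENCODE M21), in the order of their mitochondrial counterparts. The release with which the counts were made is another one than M21, so the position of this copy in it was not checked.

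The sequences of the 6 genes and of these pseudogenes, taken from the GENCODE transcripts, were close to identical. The pseudogenes of mt-Co2 (Gm28661, 681 aligned bases), mt-Atp6 (Gm10925, 678 bases), mt-Co3 (Gm28437, 783 bases) and mt-Nd4l (Gm10222, 294 bases) had an identity of 100% over the aligned bases. Gm28439 matched the first 876 bases of mt-Nd4, or 63.6% of that gene, without a difference. Over 345 bases of mt-Nd3, Gm28438 had 1 difference, T3C, and over the last 483 bases of mt-Co1, Gm29216 had 1 difference, A1066T, with positions counted from 1 at the first base of the mitochondrial gene. No annotated copy of mt-Atp8 with an identity of at least 99% was found, and the nuclear genome between the pseudogenes was not used here. The sequences around both single differences are shown because these are the only bases within the aligned stretches that set a gene apart from its copy on chromosome 1. The differing base is in capitals, and the windows are chrM:9459-9481 and chr1:24613097-24613119 for the first pair, chrM:6390-6413 and chr1:24616165-24616188 for the second.
mt-Nd3: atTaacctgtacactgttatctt
Gm28438: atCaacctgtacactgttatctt
mt-Co1: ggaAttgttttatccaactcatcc
Gm29216: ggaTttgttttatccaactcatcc

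For mt-Co2 no such base exists, and its first 45 bases (chrM:7013-7057) stand for the pairs with no difference, with the start codon in capitals.
mt-Co2 and Gm28661: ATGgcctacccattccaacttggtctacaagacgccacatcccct

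Of the genes copied over more than 90% of their length, mt-Nd3, with 1 differing base, was the only one with counts in all 19 libraries. Of those copied without a difference, mt-Co2, mt-Atp6 and mt-Co3 had any in 14, 10 and 6 libraries, and mt-Nd4l in none. mt-Atp8, for which no near-identical copy was found, also had no count in any library. The part of the copies in these counts was not tested. STAR's gene counts leave out reads that align equally well to several places, and such reads made up 6.23% (control 8) to 15.1% (D+1 IR 2) of all reads. The share of multi-mapping reads was highest in the library with the highest mitochondrial share. The chromosome 1 copies took up few counts themselves, 0.0217% to 0.0362% of those of the 37 genes. The counts of the 6 protein genes at or near 0 were not read as the level of their RNA. mt-Nd3 passed the filter and was tested, so its values below are those of the few reads that were counted. These values also entered the mean of 8 mitochondrial protein genes with which other genes are correlated below. The levels of mt-Co1 and mt-Nd4 are also given relative to the length that has no such copy. How many of the multi-mapping reads come from mitochondrial RNA was not tested.

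**Figure D1:**
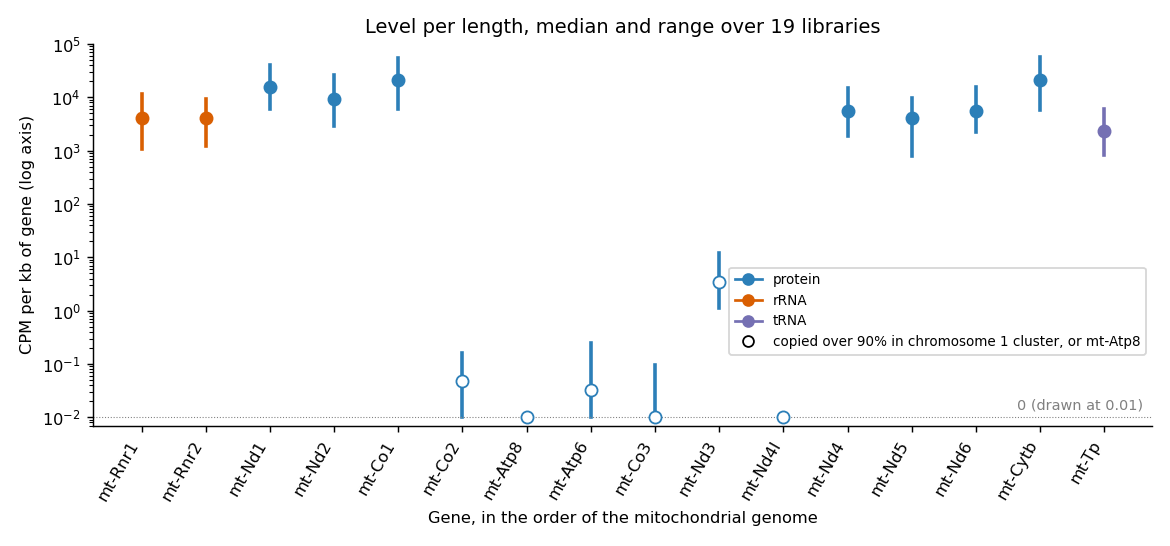
Level of the 13 protein genes, the 2 rRNA genes and mt-Tp in the order of the mitochondrial genome, as CPM per kb of gene on a log axis (point, median; bar, lowest to highest of 19 libraries; values of 0 drawn at 0.01). Open points mark mt-Atp8 and the genes copied over more than 90% of their length in the chromosome 1 cluster, which all lie below the 7 other protein genes.

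Overlap between neighbouring genes removed further reads, since a read that touches 2 genes is counted for neither. The reading frames of mt-Atp8 and mt-Atp6 share 43 bases and those of mt-Nd4l and mt-Nd4 share 7 bases, shown in capitals with 10 bases on each side (chrM:7917-7979 and chrM:10157-10183, plus strand).
mt-Atp8/mt-Atp6: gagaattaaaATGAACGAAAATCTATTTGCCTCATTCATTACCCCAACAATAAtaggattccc
mt-Nd4l/mt-Nd4: acctactacaATGCTAAaaattattct

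The ends of mt-Nd5 and mt-Nd6, which lie on opposite strands, also overlap (chrM:11742-13565 and chrM:13552-14070). The unstranded column held 90.7% of the sum of the 2 strand columns for mt-Nd5 and 78.2% for mt-Nd6, against 99.9% or more for the rRNA genes, mt-Nd1, mt-Nd2, mt-Co1 and mt-Nd4. The counts of mt-Nd6, the only protein gene transcribed from the other strand, thus leave out reads that cross into a neighbour. Since the strands cannot be told apart, they also hold any reads from the opposite strand at this position. How many there were was not tested.

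Among the tRNA genes, mt-Tp, which encodes the tRNA for proline, was the only one with counts in every library, with 1823 to 20946. It is the last gene before the noncoding control region, on the minus strand (chrM:15356-15422). Reads of either strand were counted for mt-Tp. Whether they came from the tRNA itself or from longer RNA over this position was not tested. Its sequence is shown with the anticodon TGG in capitals.
mt-Tp: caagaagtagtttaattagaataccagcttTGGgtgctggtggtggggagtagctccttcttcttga

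mt-Tn had 2 counts in each of 2 libraries, control 4 and D+1 IR 1. The other 20 tRNA genes, mt-Tf, mt-Tv, mt-Tl1, mt-Ti, mt-Tq, mt-Tm, mt-Tw, mt-Ta, mt-Tc, mt-Ty, mt-Ts1, mt-Td, mt-Tk, mt-Tg, mt-Tr, mt-Th, mt-Ts2, mt-Tl2, mt-Te and mt-Tt, were at 0 in all 19 libraries. For several of them the strand columns were not empty: the second-strand column summed to 23839 counts for mt-Te, 15749 for mt-Tq, 6434 for mt-Ty and 4674 for mt-Tw over all libraries. A count of 0 for a tRNA gene in the unstranded column is therefore not a measure of its RNA, and mature tRNAs carry no long poly(A) tail by which this library type would select them.

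The classes differed in their share of the counts, which leave out reads that align to several places or touch several genes. The protein genes took 3.76% to 20.8% (median 9.79%), the rRNA genes 0.339% to 2.04% (median 0.985%) and the tRNA genes 0.00620% to 0.0327% (median 0.0158%), so in each of the 19 libraries the protein genes held the most. Of the mitochondrial counts alone, 83.8% to 93.3% fell in protein genes and 6.59% to 16.0% in the 2 rRNA genes. In whole cells the mitochondrial rRNAs are more abundant than the messenger RNAs, and the shares here are those after selection by poly(A).

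Per length, the levels of the 7 abundant protein genes and of the rRNA genes were of one order of magnitude. The highest median levels were those of mt-Co1, 21495 CPM per kb, and mt-Cytb, 20706 CPM per kb. mt-Nd1 followed with 15544, mt-Nd2 with 9217, mt-Nd4 with 5529, mt-Nd6 with 5457, mt-Rnr1 with 4159, mt-Rnr2 with 4094, mt-Nd5 with 4031 and mt-Tp with 2360 CPM per kb. Divided by the length that has no near-identical copy instead, the same counts give 31271 CPM per kb for mt-Co1 and 15176 CPM per kb for mt-Nd4, which are upper limits since counts from the copied part are included. The share of the counts of each of these genes differed 5.09-fold or more between libraries, so the ranges of neighbours in this order overlapped. These ranges include the change of the mitochondrial total between libraries, so they do not show the order within a library. Of the mitochondrial counts, mt-Nd1 (957 bases) held 11.5% or more in every library, and the longer mt-Nd2 (1038 bases) 10.3% or less.

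The share of all 37 genes varied 5.10-fold between libraries, and it varied within the groups. In control aortas it was 17.2%, 15.2%, 10.0%, 4.86% and 4.65% (libraries 4, 5, 6, 8 and 9). In D-3 IR it ranged from 7.27% to 14.4% with a median of 11.0%, and in D+1 IR from 4.49% to 22.9% with a median of 14.1%. The control and D+1 IR groups each held libraries under 5% and libraries over 15%, and the D-3 IR libraries lay within the range of both. The D+1 IR libraries 1, 2 and 3 were at 15.2%, 22.9% and 14.1%, while libraries 17, 18, 19 and 20 were at 4.50%, 8.04%, 14.5% and 4.49%. Without the first 3, the median of D+1 IR fell to 6.27%. In a bulk sample of tissue, less mitochondrial RNA per cell and fewer cells rich in mitochondria cannot be told apart.

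**Figure D2:**
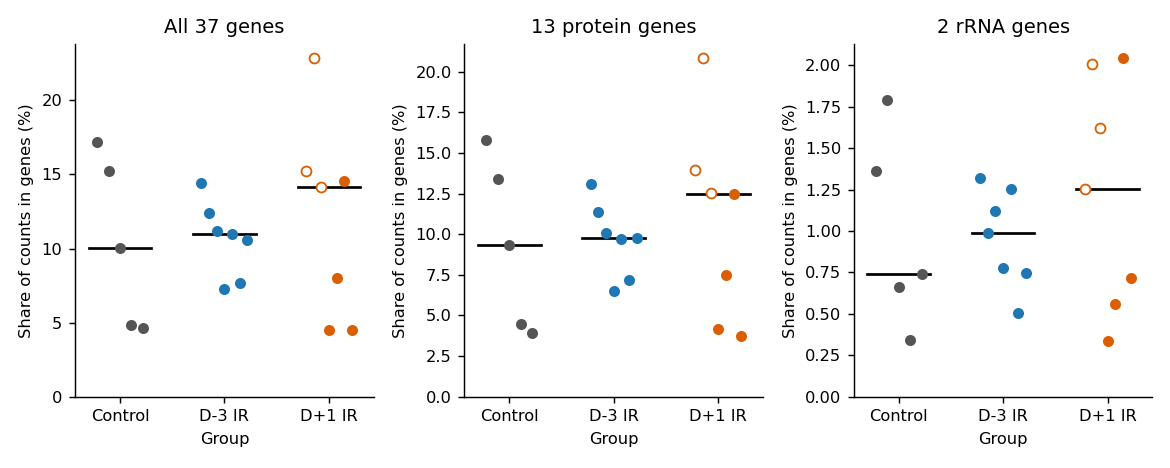
Share of the counts in genes taken by all 37 mitochondrial genes, the 13 protein genes and the 2 rRNA genes, in percent, 1 point per library by group (line, group median; open points, D+1 IR libraries 1, 2 and 3). The groups overlap for each class, and the open points lie at or above the median of D+1 IR.

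Of the members, mt-Co1, the catalytic subunit of complex IV, had the most counts. The protein genes at or near 0 cannot be ranked against it. Its share of the counts was 5.25%, 4.30%, 3.18%, 1.51% and 1.29% in control libraries 4, 5, 6, 8 and 9, 2.29% to 4.24% (median 3.32%) in D-3 IR and 1.16% to 6.62% (median 3.72%) in D+1 IR. All 3 groups overlapped, and D+1 IR held both the lowest library (20) and the highest (2). mt-Cytb, the only mitochondrial subunit of complex III, stood at 3.70%, 3.22%, 2.28%, 1.01% and 0.910% in the control libraries, at 1.47% to 2.99% (median 2.30%) in D-3 IR and at 0.808% to 5.22% (median 2.86%) in D+1 IR, in the same order of control libraries.

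Among the complex I genes, mt-Nd1 took 0.595% to 2.27% of the counts in control (median 1.39%), 0.952% to 2.15% in D-3 IR (median 1.42%) and 0.617% to 3.09% in D+1 IR (median 1.89%). mt-Nd2 took 0.372% to 1.68%, 0.645% to 1.18% and 0.372% to 2.19% in the same order of groups, mt-Nd4 0.292% to 1.15%, 0.433% to 1.20% and 0.281% to 1.63%, and mt-Nd5 0.325% to 1.22%, 0.534% to 0.922% and 0.176% to 1.43%. For mt-Nd6 the ranges were 0.127% to 0.524%, 0.147% to 0.496% and 0.135% to 0.647%. In each of these 5 genes the range of D-3 IR lay within that of D+1 IR, and the coefficient of variation was lower in D-3 IR (19.2% to 41.5%) than in either other group (51.0% to 61.4%), a difference in spread that was not tested.

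The large rRNA, mt-Rnr2, stood at 0.792%, 1.05%, 0.412%, 0.217% and 0.479% of the counts in control libraries 4, 5, 6, 8 and 9, at 0.314% to 0.757% (median 0.598%) in D-3 IR and at 0.230% to 1.34% (median 0.758%) in D+1 IR. The small rRNA, mt-Rnr1, ranged from 0.126% to 0.745% (median 0.261%) in control, from 0.195% to 0.584% (median 0.388%) in D-3 IR and from 0.109% to 0.873% (median 0.495%) in D+1 IR. Both again overlapped between all groups. mt-Tp ranged from 0.00686% to 0.0224% in control, 0.00794% to 0.0197% in D-3 IR and 0.00620% to 0.0327% in D+1 IR.

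edgeR's quasi-likelihood test over 17617 genes called 0 genes at an adjusted p under 0.05 in each of the 3 comparisons (0% of the genes tested), and hence 0 of the 11 members that passed the filter: the 2 rRNA genes, the 7 abundant protein genes, mt-Nd3 and mt-Tp. No member had an unadjusted p under 0.05 in any comparison. Over all genes tested, 232 (1.32%) did so in D-3 IR against control, 1253 (7.11%) when D+1 IR was compared with control and 2018 (11.5%) when both irradiated groups were compared. DESeq2 called 0, 2 and 56 genes (0%, 0.0114% and 0.318%) and limma voom with sample weights 0, 0 and 2298 genes (0%, 0% and 13%), in the same order of comparisons, and no member was among them. No member was free of overlap between any pair of groups, while 2 (0.0114%), 24 (0.136%) and 28 (0.159%) of all genes were.

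For D-3 IR against control, the log2 fold changes of the members lay around 0. The mean of mt-Co1 was 32974 CPM in D-3 IR against 32331 CPM in control, with 0.03 as the log2 fold change (standard error 0.55, adjusted p = 1.00 by edgeR). For mt-Rnr2 the log2 fold change was -0.08 (standard error 0.49). mt-Nd3, which rests on at most 169 counts, had the most negative value, -0.55 (standard error 0.53). Of the 11 members, 3 were positive and the median was -0.06, while 43.1% of all genes tested were positive with a median of -0.03. The median of the members ranged from -0.26 (without control 8) to 0.21 (without control 4) when single libraries were left out.

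For D+1 IR against control all 11 members had positive log2 fold changes, from 0.03 (mt-Nd3) to 0.34 (mt-Rnr2), with a median of 0.22, while 44.9% of all genes tested were positive with a median of -0.04. The mean of mt-Co1 in D+1 IR was 36893 CPM, and its log2 fold change was 0.19 (standard error 0.55, adjusted p = 0.943 by edgeR). The 11 values are not independent, since the members rise and fall together between libraries, and each was smaller than its standard error, which was 0.44 to 0.55. Without the D+1 IR libraries 1, 2 and 3, all 11 were negative, from -0.73 to -0.07 with a median of -0.49, and that of mt-Co1 was -0.50 (standard error 0.58).

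For D-3 IR against D+1 IR all 11 members were negative, from -0.58 (mt-Nd3) to -0.16 (mt-Co1), with a median of -0.28, while 45.4% of all genes tested were positive with a median of -0.04. The means of mt-Rnr2 were 5794 CPM for irradiation before the pump and 7744 CPM for irradiation after it, with -0.42 as the log2 fold change (standard error 0.45, adjusted p = 0.706 by edgeR). Without the D+1 IR libraries 1, 2 and 3, 10 of the 11 were positive with a median of 0.44, the exception being mt-Rnr2 at -0.005. Without D+1 IR 2 alone, the median of the members was 0.04 between the irradiated groups and -0.14 for D+1 IR against control, both of the other sign. The second of these medians was also reduced to 0.01 without control 8 or without control 9, and it was 0.37 to 0.48 without control 4, control 5, D+1 IR 17 or D+1 IR 20. All control and D-3 IR libraries carry the other file number, so within it only the 4 other D+1 IR libraries can be compared with them.

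**Figure D3:**
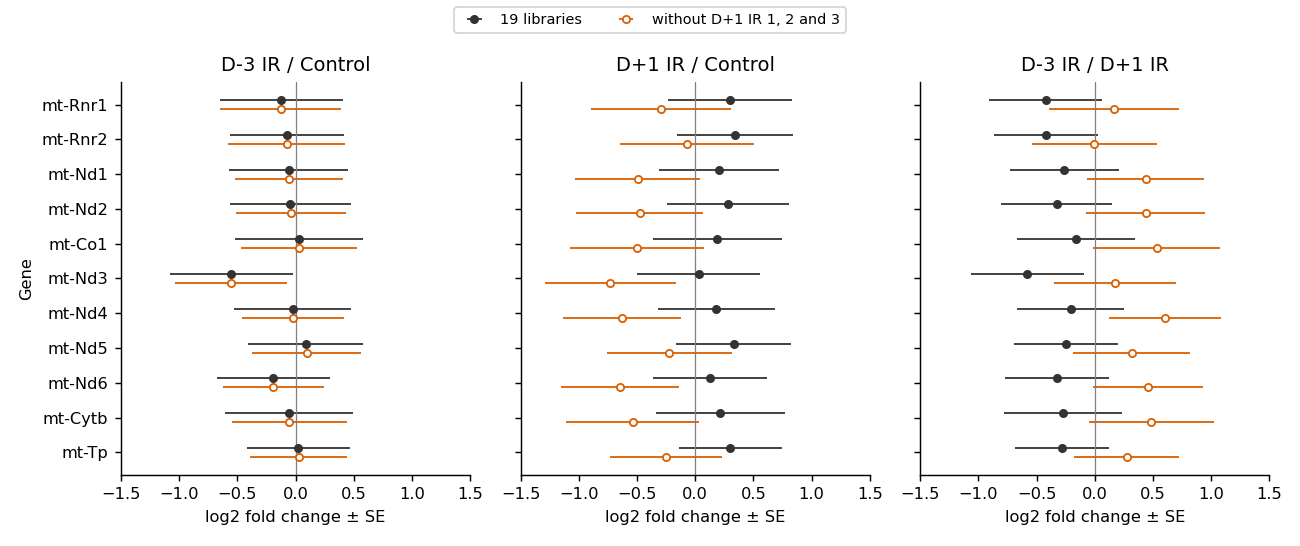
Log2 fold change with its standard error (edgeR) for the 11 members that passed the filter, for the 3 comparisons (first group over second group), with all 19 libraries (filled) and without the D+1 IR libraries 1, 2 and 3 (open). In D-3 IR over Control both fits are alike, and in the other comparisons the members change sign, except mt-Rnr2 in D-3 IR over D+1 IR.

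The members varied widely between libraries of a group although their counts were high. The biological coefficient of variation that edgeR assigned to the members was 0.525 to 0.633, against a median of 0.406 over all genes, and 9 of the 11 members had a median of 126144 counts or more per library. This placed the members at percentiles 64.5 to 74.0 of the genes tested, and the common value over these genes, 0.591, lay within their range. The difference between control 4 and control 9, mice of the same group, was larger than any difference between group medians.

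Within the mitochondrial counts the proportions of the genes were far steadier than their total. Over the 19 libraries mt-Co1 made up 25.9% to 34.2% of the mitochondrial counts, mt-Cytb 18.0% to 22.8%, mt-Nd1 11.5% to 15.9%, mt-Nd2 7.99% to 10.3% and mt-Nd4 5.41% to 8.62%. The highest library exceeded the lowest 1.27-fold for mt-Cytb, 1.29-fold for mt-Nd2, 1.32-fold for mt-Co1 and 1.38-fold for mt-Nd1, where their shares of all counts had varied 5.20- to 6.46-fold. The rRNA genes and mt-Nd5 varied more: mt-Rnr1 made up 2.42% to 7.54% (3.12-fold), mt-Rnr2 4.07% to 10.3% (2.53-fold) and mt-Nd5 3.91% to 9.29% (2.37-fold). Between them lay mt-Nd4 (1.59-fold), mt-Nd6 (1.81-fold) and mt-Tp (1.82-fold), while mt-Nd3, with its few counts, varied 3.64-fold.

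**Figure D4:**
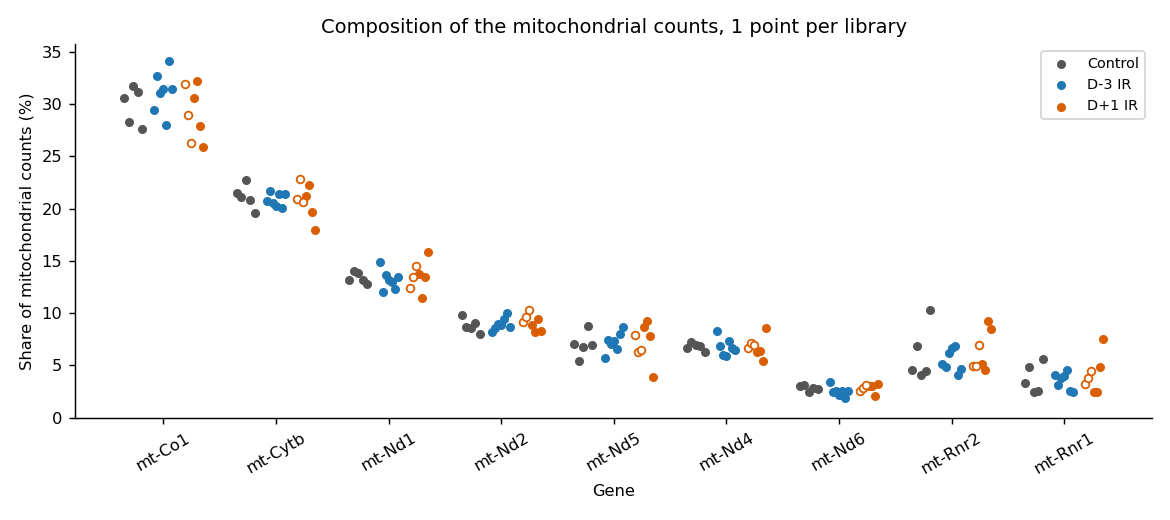
Share of each gene in the mitochondrial counts of a library, in percent, for the 7 abundant protein genes and the 2 rRNA genes, 1 point per library by group (open points, D+1 IR libraries 1, 2 and 3). The groups overlap for every gene, and relative to their level mt-Cytb, mt-Nd2, mt-Co1 and mt-Nd1 vary least between libraries.

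Of single libraries, D+1 IR 20 stood at the end of the range for most genes. Its mitochondrial counts held the lowest proportions of mt-Co1 (25.9%), mt-Cytb (18.0%) and mt-Nd5 (3.91%) and the highest of mt-Nd1 (15.9%), mt-Nd4 (8.62%) and mt-Rnr1 (7.54%). It had 0.247 counts of mt-Nd5 per count of mt-Nd1, against 0.381 to 0.811 in the other 18 libraries. The highest proportions of the 2 rRNA genes together were 16.0% in D+1 IR 20, 15.9% in control 9 and 14.1% in D+1 IR 19, so they occurred in an irradiated and in the unirradiated group alike. The summed level of 5 macrophage markers was highest in D+1 IR 20 (2933 CPM) and second highest in control 9 (1487 CPM), but 387 CPM in D+1 IR 19, and its part in the proportion of rRNA was not tested.

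Between libraries the members moved together. The Pearson correlation of log2 CPM over the 19 libraries, given as a description, had a median of 0.89 over the 55 pairs of the 11 members and ranged from 0.67 to 0.99. These genes share the library, the normalization and, in part, the same precursor RNA.

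The nuclear genes with which mitochondrial genes work showed a similar order of libraries. The list of nuclear subunits of complexes I to IV and ATP synthase had 80 genes that passed the filter, and their mean log2 CPM per library had a Pearson correlation of 0.67 (Spearman 0.69) with the mean log2 CPM of the 8 mitochondrial protein genes over 19 libraries, and of 0.51 over the 16 libraries without D+1 IR 1, 2 and 3. Of the 80 genes, 79 correlated positively with the mitochondrial mean, with a median of 0.65, whereas the median over all 17606 nuclear genes was -0.05. Some libraries departed from this: control 6 had the lowest nuclear mean (6.12 on the log2 scale) but a mitochondrial mean of 11.8, above the median of 11.7, while D+1 IR 20 had a nuclear mean of 7.17, the median, and the lowest mitochondrial mean, 10.1.

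**Figure D5:**
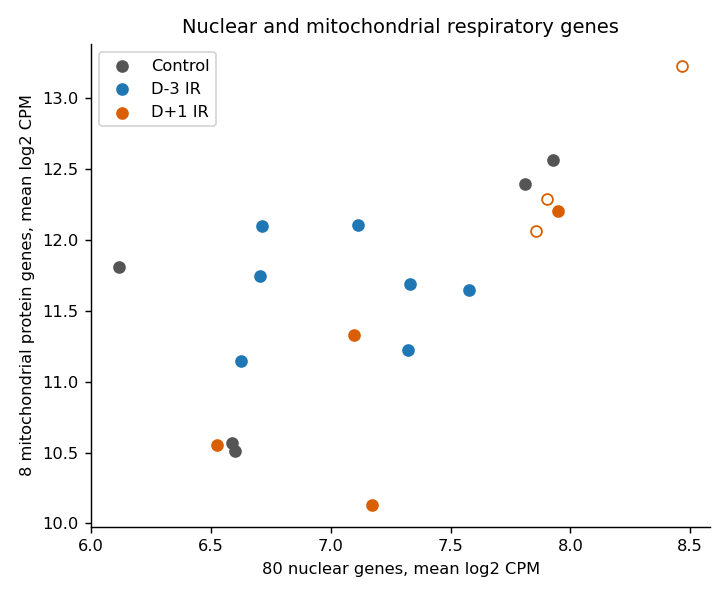
Mean log2 CPM of 8 mitochondrial protein genes (vertical) against that of 80 nuclear genes of the respiratory chain and ATP synthase (horizontal), 1 point per library by group (open points, D+1 IR libraries 1, 2 and 3). The highest library on both axes is D+1 IR 2, and control 6 and D+1 IR 20 lie away from the others.

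In the tests, 0 of these 80 nuclear genes were called by edgeR in any comparison. For D+1 IR against control 77 of 80 were positive with a median log2 fold change of 0.52, and for D-3 IR against D+1 IR 77 were negative with a median of -0.66, while 11 of the 80 had an unadjusted p under 0.05, in a comparison in which 11.5% of all genes did. Their median for D-3 IR against control stood at -0.11. When the D+1 IR libraries 1, 2 and 3 were left out, these medians moved to 0.09 for the former and -0.23 for the latter comparison of D+1 IR, both of the same sign as with them, where the mitochondrial medians changed sign.

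By complex, the 36 nuclear complex I genes were positive without exception in D+1 IR against control, with a median of 0.52, where 44.9% of all genes tested were positive. The smallest p was that of Ndufab1, the acyl carrier protein, with 130 ± 64.6 CPM (SD, n = 7) in D+1 IR and 78.7 ± 54.9 CPM (SD, n = 5) in control, or 0.72 as a log2 fold change (standard error 0.44). In complex II, which has no mitochondrially encoded subunit, the 4 genes had a median of 0.73, and Sdha, its flavoprotein, one of 0.80 (standard error 0.52). The 9 complex III genes had a median of 0.62, the 15 of complex IV one of 0.57 and the 16 of ATP synthase one of 0.41, where Atp5g2, a gene of the membrane ring, stood at 0.35 (standard error 0.18). Without the D+1 IR libraries 1, 2 and 3, 34 of the 36 complex I genes were positive and the medians were lower, 0.09 for complex I, 0.23 for complex II, 0.17 for complex III, 0.08 for complex IV and 0.09 for ATP synthase. limma voom with sample weights called 53 of the 80 lower and 1 higher in D-3 IR against D+1 IR, the comparison in which it called 13% of all genes, and DESeq2 called 0.

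Cox6a2, a complex IV subunit of skeletal and heart muscle, went the other way, with 11.7 ± 18.5 CPM (SD, n = 7) in D-3 IR against 1.00 ± 1.49 CPM (SD, n = 7) in D+1 IR and 3.56 as its log2 fold change (standard error 1.38, adjusted p = 0.417 by edgeR). In the D-3 IR libraries 10 and 15 the summed level of 9 skeletal muscle markers reached 8254 and 3244 CPM, against 6.79 to 866 CPM in the other 17 libraries, and its part in this difference was not tested.

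Of the genes that transcribe and maintain mitochondrial DNA, 22 were tested. edgeR and DESeq2 called 0 of them in any comparison, and limma voom called 5, all lower for D-3 IR than for D+1 IR, where it called 13% of all genes. The mean log2 CPM of this list correlated with that of the mitochondrial protein genes more closely than the mean of the nuclear subunits did in value. Its Pearson correlation was 0.79 over 19 libraries (0.69 without D+1 IR 1, 2 and 3), a difference that was not tested. Gene by gene the order was the other way. The median correlation of the 22 genes was 0.51, with 20 positive and the lowest at -0.67, against a median of 0.65 for the 80 nuclear subunits. Tfam, which packages mitochondrial DNA and starts its transcription, stood at 25.5 ± 1.88 CPM (SD, n = 7) in D-3 IR against 34.4 ± 11.4 CPM (SD, n = 7) in D+1 IR, with -0.43 as its log2 fold change (standard error 0.18, adjusted p = 0.421 by edgeR). Its levels were 42.3, 52.6 and 35.2 CPM in the D+1 IR libraries 1, 2 and 3, against 20.6 to 39.4 CPM in the other 4. Tfb2m, a transcription factor of the same system, had means of 27.1 CPM in D+1 IR and 15.9 CPM in control, and its log2 fold change was 0.77 (standard error 0.35, adjusted p = 0.644 by edgeR).

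Of the 20 genes tested that process or degrade mitochondrial RNA, 10 had an unadjusted p under 0.05 between the irradiated groups, against 11.5% of all genes, and all 10 were lower in D-3 IR. The list median was -0.40. edgeR and DESeq2 called 0 of the 20. limma voom called 13 lower and 1 higher in D-3 IR, in the comparison in which it called 13% of all genes. Pnpt1, the polynucleotide phosphorylase of mitochondria, had 19.3 ± 2.33 CPM (SD, n = 7) in D-3 IR against 25.7 ± 3.37 CPM (SD, n = 7) in D+1 IR, or -0.41 on the log2 scale (standard error 0.13, adjusted p = 0.409 by edgeR). For Trmt10c, a subunit of the RNase P that cuts the tRNAs out, it was -0.54 (standard error 0.20). With the D+1 IR libraries 1, 2 and 3 left out, this median became -0.21, and 0 genes had an unadjusted p under 0.05. Among 15 regulators of mitochondrial biogenesis, Ppargc1a, a coactivator induced in brown fat by cold, averaged 43.0 ± 33.9 CPM (SD, n = 7) in D+1 IR and 17.4 ± 11.9 CPM (SD, n = 5) in control, with 1.31 as its log2 fold change (standard error 0.65, adjusted p = 0.644 by edgeR), with a list median of 0.45 and 0 genes called by edgeR. Over the 16 other libraries, without D+1 IR 1, 2 and 3, this list median was 0.17. There 2 of the 15 regulators had an unadjusted p under 0.05 by edgeR (268 of all 17619 genes), against 1 with all libraries (1253 of all 17617 genes).

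Markers of some other cell types moved with the mitochondrial level. Brown adipocytes are among the cells richest in mitochondria, and 8 brown adipocyte markers summed to 5823 to 8325 CPM in the D+1 IR libraries 1, 2 and 3 and to 865 to 7366 CPM in the 4 others, to 227 to 5636 CPM in control and to 438 to 4058 CPM in D-3 IR. Ucp1, the uncoupling protein that defines these cells, stood at 107 CPM or more in every library and was highest in D+1 IR 19 (4223 CPM). None of the 8 markers was at 0 in any group. The summed level had a Pearson correlation of 0.50 (Spearman 0.61) with the mitochondrial mean over 19 libraries, and of 0.33 without D+1 IR 1, 2 and 3. The sum of 6 smooth muscle markers was 1161 to 6469 CPM in the same 3 libraries and 1983 to 15841 CPM in the other D+1 IR libraries, and its correlation with the mitochondrial mean was -0.09, or 0.26 without these 3 libraries. The part of these cell types in the mitochondrial shares was not tested.

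The other marker lists were read in the same way, and the value in brackets after each Pearson correlation is the one over the 16 libraries without D+1 IR 1, 2 and 3. The sum of 5 fibroblast markers, led by Col1a1, correlated negatively at -0.58 (-0.71), and so did that of 7 markers of sympathetic neurons and adrenal medulla at -0.46 (-0.37) and that of 5 macrophage markers at -0.32 (-0.41). Positive values were found for 5 erythroid markers, 0.50 (0.66), 4 endothelial markers, 0.49 (0.29), 7 white adipocyte markers, 0.33 (0.15), and 4 liver markers, 0.25 (0.11). For 6 kidney tubule markers, at most 12.1 CPM in any library, the value was -0.56 (-0.48), and for 5 neutrophil markers -0.21 (-0.12). That of 5 cardiac markers, at most 12.3 CPM, changed sign, from -0.33 to 0.11. For 9 skeletal muscle markers it was 0.01 (0.14). The 5 adrenal cortex markers stood at 107 CPM in D+1 IR 3 and at 6.62 CPM or less elsewhere, and their value of -0.002 became -0.32 when the 3 libraries were left out.

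The nuclear genes whose log2 CPM was most like the mean of the mitochondrial protein genes over 19 libraries were mostly copies of mitochondrial DNA. Of the 10 with the highest Pearson correlation, 7 were annotated pseudogenes that align to mt-Co1, mt-Co2, mt-Co3, mt-Atp6 or mt-Nd4. Gm29216 on chromosome 1, with 5.20 to 48.8 CPM, came first with 0.99, followed by Gm13340 (0.96) and Gm13341 (0.95) on chromosome 2, whose identity to mt-Co1 and mt-Co2 is 97.6% and 95.9%, and by Gm28439 (0.95), Gm10925 (0.94), Gm28661 (0.93) and Gm28437 (0.89). The copy of mt-Nd3, Gm28438, was an exception with 0.40. The remaining 3 of the 10 were Kptn (0.90, 10.7 to 25.9 CPM), and 2 pseudogenes of low level. These were Mrps36-ps1 (0.89, 0.0616 to 0.678 CPM) and Gm12276 (0.87, 0.555 to 3.42 CPM). How many of the reads counted for the copies come from mitochondrial RNA was not tested. At the other end stood Cdr2l (-0.92), Slc41a2, a magnesium transporter (-0.87), Sgpp1, a sphingosine phosphate phosphatase (-0.85), Lpin2, a phosphatidate phosphatase (-0.85), and the ceramide synthase Cers6 (-0.85).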

How the data were processed

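RNA-seq of 19 mouse aortas was analysed from the deposited files. As far as their methods and processing notes state, the authors used FastQC for quality control and STAR 2.7.9a both for the alignment to GRCm38 and, through its GeneCounts option, for the counts. The deposited values are raw counts per gene, unstranded and for each strand, not normalized, and a joined table repeats the unstranded counts (equal for 703 of 703 values of the members). STAR leaves out reads that align to several places or touch several genes, and these tallies were kept out of library sizes. The annotation release is not given in the sources used here, and it was not GENCODE M21: of 52081 gene identifiers shared with M21, only 35 have the same version, all 35 of them members. Coordinates and sequences are those of M21 (GRCm38), and on chromosome 1 they may differ from those the counts were made with. Copies were found by aligning member transcripts to all M21 transcripts with BLAST+ 2.17.0, with at least 100 aligned bases and an identity of at least 99% for a near-identical copy.

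Groups follow the sample titles. The methods give 5 to 7 mice per group, each library 1 mouse. All 3 groups were fitted together, without intercept or covariates, by the quasi-likelihood method of edgeR 4.0.16 (R 4.3.3) after its default filter and TMM scaling. Its two-sided p-values were adjusted by Benjamini-Hochberg, and genes under 0.05 were called. CPM are scaled by TMM, and log2 CPM used a prior count of 2. The test was tried on simulated data. Alternatives were DESeq2 1.42.0, limma 3.58.1 voom with sample weights, RLE factors, library sizes from nuclear genes alone, no filter, each strand column, fits of 2 groups, and fits without each library or without D+1 IR 1, 2 and 3. For the share, the denominators were also nuclear counts and all reads.

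The members and the lists were chosen with earlier results of these data known. Named were the protein and rRNA genes, mt-Tp and mt-Tn as the only tRNA genes with counts, of each list members among the 4 with the smallest p in a comparison, and the 10 nuclear genes most and the 5 least like the mean of the protein genes, for which the 8 that passed the filter were used. Polrmt, Acta2, Ucp1 and the highest marker of a list are named beside them, and Ppargc1a, Trmt10c and Sdha were picked within that rule for their known role. No protein sequences were used here.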

Additional observations from a re-analysis of the deposited data

Results flagged for a closer look

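Examined were 81 sets of values (5 shares and the level and proportion of 11 genes, each in 3 groups). In 2 of them a library lay farther from the others than Dixon's test allows at 95%. The sets share genes and libraries and are not independent, so their number was not compared with chance. In both flagged sets the library was D+1 IR 2, the one with the highest mitochondrial share. mt-Nd3 stood at 4.25 CPM there, against 0.395 to 1.87 CPM in the other 6 D+1 IR libraries, and mt-Nd6 at 8092 CPM, against 1170 to 4107 CPM.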

How the results depend on the processing

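No mitochondrial gene was called in any of the 3 comparisons under any alternative. The number of genes called rose from 0 to 2 with DESeq2 in D+1 IR against control, and between the irradiated groups to 56 with DESeq2 and to 2298 with limma voom with sample weights; the cause was not tested. Without single libraries the numbers of genes and of mitochondrial genes called ranged from 0 to 0.

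Fitted without the D+1 IR libraries 1, 2 and 3, the log2 fold changes reversed to -0.50 for mt-Co1, -0.072 for mt-Rnr2 and -0.73 for mt-Nd3 in D+1 IR against control, and those between the irradiated groups to 0.53 for mt-Co1 and 0.17 for mt-Nd3 (D-3 IR against D+1 IR). mt-Nd3 in D+1 IR against control also reversed, to -0.032 with limma voom, -0.25 with second-strand counts and -0.019 when only these groups were fitted. Leaving out 1 library at a time, mt-Co1 ranged from -0.17 to 0.32 in D-3 IR against control, -0.15 to 0.48 in D+1 IR against control and -0.33 to 0.17 between the irradiated groups, with the sign turned without control 8 or 9 or D-3 IR 10 or 11 in the first, without control 8 or 9 or D+1 IR 2 in the second and without D+1 IR 2 in the last. mt-Rnr2 ranged from -0.30 to 0.25 in D-3 IR against control (turned without control 4 or 5 or D-3 IR 15) and mt-Nd3 from -0.43 to 0.37 in D+1 IR against control (turned without control 6, 8 or 9, D-3 IR 13 or D+1 IR 2 or 3). The causes were not tested.

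The median share was 6.27% in D+1 IR without libraries 1, 2 and 3, and 7.61% in D-3 IR relative to all reads, where the larger denominator lowers it. Without single libraries it ranged from 7.44% to 12.6% in control, 10.8% to 11.1% in D-3 IR and 11.1% to 14.3% in D+1 IR. No paired analysis was possible because the groups consist of different mice with 1 library each and share no replicate number.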
